A study of Mus musculus with 6 samples.

Results

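The 59 genes described here lie along mouse chromosome 5, from Fis1, Znhit1 and Plod3 at one end to Cpsf4 at the other, in the gene order of RefSeq. They were chosen by their ratio of SOX17KO to Control in the same 6 libraries, a stretch of neighbours that was lower in SOX17KO, so their own values are a description and carry no test. The rule set no threshold on the ratio. The deposited table held all 59 members among 23224 genes. After a filter on low counts 12137 genes were tested, of which 788 lie on chromosome 5 and 58 are members. Vgf, the gene of a neuropeptide precursor, had too few counts for the filter.

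Expression was measured in 3 libraries with the genotype SOX17KO and in 3 libraries labelled Control. All 6 came from mouse AKP organoids grown from in vivo tumours, a model of intestinal cancer. SOX17 had been deleted by CRISPR-Cas9 in order to study what it does in colon cancer. The labels give no alleles, guide, clone, age or strain, and no treatment of the Control organoids. Nothing in them tells if the 3 libraries of a genotype are separate cultures, so the spread between them may be technical and a group may stand for 1 clone.

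SOX17 is a transcription factor of the SOX family, which binds DNA through an HMG domain and is best known for specifying endoderm. The members of the segment share no known pathway: they include the gene of beta-actin, the GTPase RAC1 that drives actin polymerisation at the cell edge, and single subunits of many large assemblies, among them the Arp2/3 actin nucleator, translation factor eIF3, the Integrator and COP9 complexes and TFIID. In such assemblies the subunits are made from genes on many chromosomes, so most partners of a member lie elsewhere in the genome.

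Promoters are shown because the members moved together and transcription of each starts there. The 6 printed below are those of the member with the highest and the member with the lowest fold change, Fscn1 and Prkar1b, and of Trip6, Agfg2, Eif3b and Arpc1b, which were picked after their values were seen. Each runs 5′ to 3′ on the gene's own strand from 250 bases before to 50 bases after the RefSeq start on GRCm38.p6. Capitals mark exact matches, on either strand, of the TATA box TATAAA, the CCAAT box CCAAT, the GC box GGGCGG, the cyclic AMP response element TGACGTCA and the SOX core ACAAT. A match on the reverse strand therefore appears as its reverse complement, and ACAAT and CCAAT share all but the first letter.
Fscn1, chr5:142960105-142960404, plus strand: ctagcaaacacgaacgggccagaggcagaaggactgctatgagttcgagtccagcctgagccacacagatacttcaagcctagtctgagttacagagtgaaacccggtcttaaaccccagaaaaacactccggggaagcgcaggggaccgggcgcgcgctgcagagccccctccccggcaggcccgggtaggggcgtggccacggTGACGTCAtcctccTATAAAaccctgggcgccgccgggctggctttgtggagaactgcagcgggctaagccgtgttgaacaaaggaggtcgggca
Prkar1b, most upstream of 5 windows, chr5:139150654-139150953, minus strand: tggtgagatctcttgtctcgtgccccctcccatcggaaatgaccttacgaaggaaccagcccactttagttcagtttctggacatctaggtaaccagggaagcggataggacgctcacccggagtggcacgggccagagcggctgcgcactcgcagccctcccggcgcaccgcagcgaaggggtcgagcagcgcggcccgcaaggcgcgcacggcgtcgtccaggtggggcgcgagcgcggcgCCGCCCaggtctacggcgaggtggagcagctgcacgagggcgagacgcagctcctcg
Trip6, chr5:137314192-137314491, minus strand: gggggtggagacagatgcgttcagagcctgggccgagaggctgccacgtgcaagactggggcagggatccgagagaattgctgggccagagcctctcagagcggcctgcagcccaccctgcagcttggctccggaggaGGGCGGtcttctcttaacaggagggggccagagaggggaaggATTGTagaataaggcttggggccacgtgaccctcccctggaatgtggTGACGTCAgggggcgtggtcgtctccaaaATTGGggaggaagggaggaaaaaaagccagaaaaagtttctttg
Agfg2, chr5:137684704-137685003, minus strand: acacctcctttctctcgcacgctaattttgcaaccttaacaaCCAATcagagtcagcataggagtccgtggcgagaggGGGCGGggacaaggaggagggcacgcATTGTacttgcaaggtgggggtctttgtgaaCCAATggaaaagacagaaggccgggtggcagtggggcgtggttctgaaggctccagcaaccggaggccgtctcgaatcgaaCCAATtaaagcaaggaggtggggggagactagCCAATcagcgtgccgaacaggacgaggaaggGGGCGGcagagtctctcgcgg
Eif3b, chr5:140419055-140419354, plus strand: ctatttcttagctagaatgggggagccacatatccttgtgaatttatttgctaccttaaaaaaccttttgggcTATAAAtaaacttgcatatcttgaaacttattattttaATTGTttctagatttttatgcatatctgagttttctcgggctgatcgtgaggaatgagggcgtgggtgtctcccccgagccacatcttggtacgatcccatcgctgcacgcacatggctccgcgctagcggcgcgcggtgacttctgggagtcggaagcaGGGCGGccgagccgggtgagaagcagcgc
Arpc1b, chr5:145114006-145114305, plus strand: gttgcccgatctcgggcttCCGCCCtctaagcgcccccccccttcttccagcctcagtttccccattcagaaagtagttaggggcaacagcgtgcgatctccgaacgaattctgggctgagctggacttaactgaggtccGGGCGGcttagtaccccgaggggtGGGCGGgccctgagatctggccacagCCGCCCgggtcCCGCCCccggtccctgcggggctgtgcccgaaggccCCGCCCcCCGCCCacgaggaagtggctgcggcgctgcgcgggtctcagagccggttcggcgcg

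No element searched was shared by all 6 printed promoters. Fscn1, the actin-bundling protein fascin, has a cyclic AMP response element and a TATA box shortly before its start, whereas Arpc1b holds 7 GC boxes and no other match. Promoter windows were matched for 49 of the 59 members (83.1%), with 66 windows in all because some genes have several starts. A GC box was found in 45 of these 66 windows (68.2%), against 35.7% of all 32851 windows in the reference. The SOX core was found in 16 of them (24.2%), against 31.0% of all windows. The CCAAT box was found in 22 (33.3%) against 37.4%, and the TATA box in 6 (9.09%) against 13.6%. The cyclic AMP response element was in 2 windows (3.03%), those of Fscn1 and Trip6, against 1.79%. The median member promoter was 59.7% G+C with a CpG observed to expected ratio of 0.763. Over the 9656 tested genes with a window these medians were 60.7% and 0.761. All windows include those of genes that these organoids do not express, and the shares lay differently beside the 9656 tested genes with a window. Counted per gene, a GC box was found in 75.5% of the 49 members and 69.0% of the tested genes, the SOX core in 28.6% and 23.8%, the CCAAT box in 36.7% and 43.7%, the TATA box in 12.2% and 8.81%, and the cyclic AMP response element in 4.08% and 3.67%. Counted per window, the SOX core and the TATA box were thus less frequent in member windows than in all windows. Counted per gene, a different unit and background, they were more frequent than in tested genes, in 14 and 6 of the 49 members. In the shorter window from 100 bases before the start, the TATA box was in 4.08% of members and 4.22% of tested genes. With a window for 79.6% of the tested genes, under the 80% set as the minimum, these shares are no check of the members against expressed genes. A match describes these letters only.

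The libraries held 24765258, 23411787 and 18290912 expected counts in SOX17KO replicates 1, 2 and 3, and 27503254, 21238718 and 26466544 in Control replicates 1, 2 and 3. Levels are given as CPM, counts scaled to a common library size with TMM factors. The deleted gene, Sox17, had 33.8, 41.9 and 45.1 CPM in SOX17KO against 34.4, 34.5 and 34.2 CPM in Control. It was not called by edgeR (log2 fold change 0.23 ± 0.12 (SE), adjusted p = 0.345), so its level does not check the labels. With SOX17KO replicate 1 left out, edgeR called it higher (0.34, adjusted p = 0.0113). SOX17KO replicate 1 stood apart: its log2 CPM correlated at 0.960 and 0.963 (Pearson's r across genes) with the remaining SOX17KO libraries, which reached 0.986 with each other. All 7 epithelial markers were tested and summed to 9820 to 14036 CPM in SOX17KO and to 13245 to 14019 CPM in Control. Of 6 immune markers 2 were tested, the T cell marker Cd3e was at 0, and the sums were 4.91 to 13.9 CPM in SOX17KO and 8.56 to 10.9 CPM in Control. No fibroblast or endothelial marker passed the filter, with Col3a1, Dcn and Lum at 0 and sums of at most 0.878 CPM in any library. In bulk RNA, fewer cells of a type and less RNA per cell cannot be told apart.

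Transcripts of the segment were lower in SOX17KO almost throughout. In 57 of the 58 tested members every SOX17KO library lay below every Control library, and Fscn1 was the exception. Among all tested genes, 14.2% had every SOX17KO library below every Control library and 14% had every SOX17KO library above. The median log2 fold change of the 58 was -0.66, with quartiles of -0.82 and -0.50, where the median of all tested genes was 0.014 with quartiles of -0.14 and 0.15. The 675 tested genes of chromosome 5 outside the segment had a median of 0.0017. On the linear scale the median member was at 0.634 times its Control level. A total of 53 members lay between 0.25 and 0.75 of Control, 11 of them under 0.5, 1 lay lower and 4 lay higher. A ratio below 0.75 was met by 9.79% of all tested genes.

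The median ratio to the Control mean was 0.658, 0.639 and 0.593 in SOX17KO replicates 1, 2 and 3, so the low level was shared by all 3 libraries. With edgeR's quasi-likelihood test at an adjusted p below 0.05 as the call, 44 members were called lower and 0 higher, where the same rule called 3.2% of all tested genes lower and 3.67% higher. Since this contrast chose the members, nothing is read from that count. The calls given below by role group stand beside the same shares, describe the selected values and are no test of a function. At an unadjusted p below 0.05 edgeR gave 57 members lower and 0 higher, beside 9.74% and 10.6% of all tested genes. DESeq2 called 51 lower and 0 higher, beside 4.95% and 5.72% of the genes with an adjusted p, and limma-voom 42 and 0, beside 3.25% and 2.99%. Without SOX17KO replicate 1, 55 members were called lower and 0 higher, beside 10.3% of all tested genes lower and 11.9% higher. Leaving out Control replicate 1, 2 or 3 left 17, 16 or 16 members called lower, where the share of all tested genes called lower also dropped, to 0.798%, 0.763% or 0.854%.

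**Figure D1:**
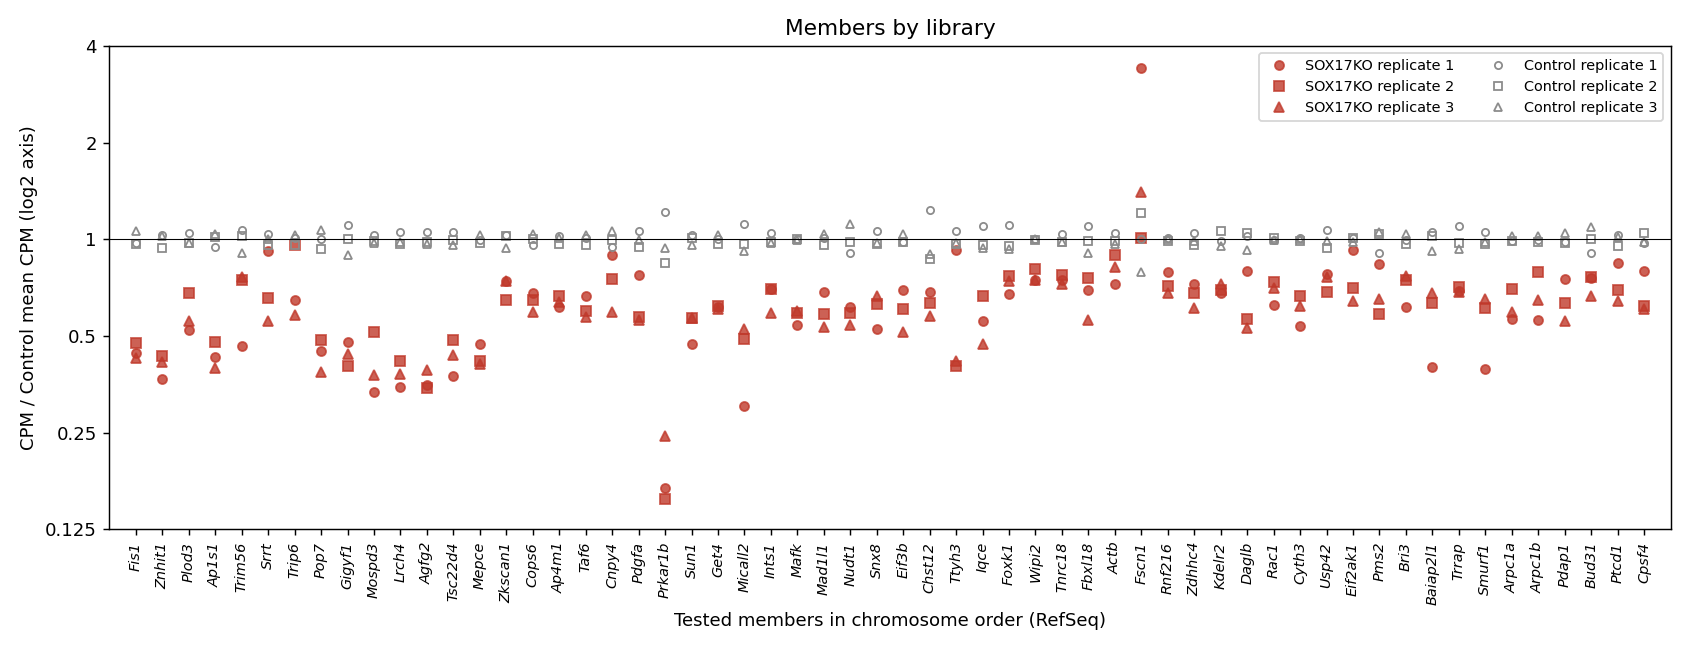
Level of each tested member in each library, as CPM divided by the Control mean on a log2 axis, in chromosome order. Filled red symbols are the 3 SOX17KO libraries and open grey symbols the 3 Control libraries. All red symbols lie below the grey ones except in Fscn1, and in Trip6 the highest SOX17KO and the lowest Control value coincide at 70.3 CPM.

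The cytoskeletal genes were lower in SOX17KO with Fscn1 as the exception, and Actb was the closest to its Control level of all members below it. Actb, the gene of beta-actin, was at 2965, 3655 and 3356 CPM in SOX17KO and at 4259, 4046 and 3945 CPM in Control. Its mean was 3326 ± 346 CPM in SOX17KO and 4083 ± 160.1 CPM in Control (SD, n = 3 each), a ratio of 0.814 and a log2 fold change of -0.30 ± 0.10 (SE). The groups did not overlap, but Actb was not among the members called lower. Rac1, the small GTPase of lamellipodia, was at 411, 485 and 462 CPM in SOX17KO and at 655, 664 and 652 CPM in Control, a ratio of 0.689. Its 3 Control libraries were almost equal and all SOX17KO libraries were far below them. Rac1 shares 54.8% of its exonic bases in GENCODE M21 with Daglb on the opposite strand, and how the counting used strand is not given in the sources read. Reads of such pairs cannot be told apart without it, which also touches Arpc1b with Pdap1 (29.9% of the exonic bases of Arpc1b), Taf6 with Ap4m1 (38.2% of Taf6), Znhit1 with Plod3 (28.4% of Znhit1) and Bud31 with Ptcd1 (24.7% of Bud31).

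The WD40 subunits of the Arp2/3 complex, which nucleates branched actin, are encoded side by side in the segment, and both were lower. Arpc1a was at 99.8, 123 and 105 CPM in SOX17KO and at 175, 174 and 181 CPM in Control, a ratio of 0.619. Arpc1b was at 517, 733 and 599.7 CPM in SOX17KO and at 922, 909 and 947 CPM in Control, a ratio of 0.666. SOX17KO replicate 1 was the lowest library for both genes and replicate 2 the highest. Per kilobase of exon, Arpc1b stood at 274 CPM per kb in SOX17KO and 412 in Control, above Arpc1a at 67.1 and 108 CPM per kb. Micall2, a junctional protein that links Rab13 to actin, was the lowest of the group by fold change, with 54.3, 87.9 and 94.3 CPM in SOX17KO and 199.6, 173 and 164 CPM in Control, a ratio of 0.440. Baiap2l1, a membrane-bending actin regulator of the IRSp53 family, was at a ratio of 0.571 and was not called. Cyth3, an exchange factor for ARF GTPases, was at 0.608 and was called lower. Trip6, a LIM-domain adaptor of focal adhesions, was at 47.5, 70.3 and 42.5 CPM in SOX17KO and at 74.0, 70.3 and 75.5 CPM in Control and was not called.

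Fscn1 went against its neighbours, at very few counts. It was at 1.49, 0.439 and 0.610 CPM in SOX17KO and at 0.434, 0.526 and 0.342 CPM in Control, with only 32 counts over the 3 Control libraries. The groups overlapped and the ratio of 1.95 came mostly from SOX17KO replicate 1: the log2 fold change was 0.99 ± 0.51 (SE) with that library and 0.26 without it. In all, 8 of the 9 cytoskeletal members had non-overlapping, lower SOX17KO values, 5 were called lower, and the median log2 fold change was -0.59.

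All 8 genes of transcription and chromatin were called lower, with a median log2 fold change of -0.62. Trrap, the large scaffold of the TIP60 and SAGA acetyltransferase complexes, was at 139.8, 144 and 139 CPM in SOX17KO and at 223, 198 and 189 CPM in Control, a ratio of 0.694. The SOX17KO libraries were close together and below the lowest Control library. Znhit1, a subunit of the SRCAP complex that deposits the histone variant H2A.Z, had the lowest fold change of the group, with 44.9, 53.0 and 50.5 CPM in SOX17KO and 126, 115 and 126 CPM in Control. Its ratio of 0.405 was next to that of Tsc22d4, a leucine-zipper protein, at 0.432. Taf6, a histone-fold subunit of TFIID, was at a ratio of 0.613, Mafk, a small MAF partner of NRF2, at 0.577, and Foxk1, a forkhead factor, at 0.728. Tnrc18 was the least lowered, with 130.5, 135 and 127 CPM in SOX17KO and 182, 172 and 172 CPM in Control.

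Of the 6 RNA processing genes 5 were called lower, with a median log2 fold change of -0.58. Ints1, the largest Integrator subunit, was at 175, 175 and 148 CPM in SOX17KO and at 261, 246 and 244 CPM in Control, a ratio of 0.663. Mepce, the methyl-capping enzyme of 7SK RNA, was at 47.3, 41.9 and 41.0 CPM in SOX17KO and at 99.7, 97.5 and 103 CPM in Control, a ratio of 0.434. The 2 groups were well apart in both genes. Pop7, a protein subunit of RNase P and RNase MRP, was likewise at a ratio of 0.441. Bud31, a spliceosome component, was the least lowered, with 46.2, 46.3 and 40.6 CPM in SOX17KO and 55.1, 61.1 and 66.4 CPM in Control. Cpsf4, the zinc-finger subunit of the poly(A) signal recognition complex, was at a ratio of 0.674. Srrt, which links the RNA cap to processing, was at 219.8, 157 and 132 CPM in SOX17KO and at 248, 229 and 239 CPM in Control and was not called, with SOX17KO replicate 1 near the Control level.

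Eif3b, a core scaffold subunit of the eIF3 initiation complex, had the most Control counts of the members after Actb. It was at 795, 692 and 587 CPM in SOX17KO and at 1119, 1118 and 1185 CPM in Control, with means of 692 ± 104 and 1141 ± 38.3 CPM (SD, n = 3 each) and a ratio of 0.606. Even its highest SOX17KO library, replicate 1, was clearly under the lowest Control library. Gigyf1, which recruits a translational repressor complex, was at 31.4, 26.6 and 28.9 CPM in SOX17KO and at 73.0, 66.0 and 58.9 CPM in Control, a ratio of 0.439. Eif2ak1, the heme-regulated kinase of the integrated stress response, was at 61.2, 46.4 and 42.4 CPM in SOX17KO and at 66.5, 66.7 and 64.9 CPM in Control and was not called. Its first SOX17KO library was close to Control and the other 2 were not.

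Of the 6 genes of the ubiquitin system 4 were called lower. Cops6, a subunit of the COP9 signalosome that removes NEDD8 from cullin ligases, was at 177, 169 and 154 CPM in SOX17KO and at 249.9, 261 and 270.1 CPM in Control, a ratio of 0.640. Smurf1, a HECT ubiquitin ligase of BMP signalling and RhoA, was at 83.7, 129.7 and 138 CPM in SOX17KO and at 223, 205 and 208 CPM in Control, a ratio of 0.553. The groups were apart in both, and SOX17KO replicate 1 was much the lowest library for Smurf1. Usp42, a deubiquitinase, was at 22.0, 19.4 and 21.5 CPM in SOX17KO and at 30.2, 26.5 and 27.9 CPM in Control, the smallest shift of the group. The ligases Rnf216, Fbxl18 and Trim56 were at ratios of 0.731, 0.670 and 0.658, of which Fbxl18 and Trim56 were not called.

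The 12 genes of membrane traffic and the secretory pathway formed the largest group, and 10 were called lower with a median log2 fold change of -0.68. Ap1s1, the small subunit of the clathrin adaptor AP-1, was at 112, 124 and 104 CPM in SOX17KO and at 247, 264 and 271 CPM in Control, a ratio of 0.435. Agfg2, an ARFGAP-related protein, was at 23.5, 23.0 and 26.1 CPM in SOX17KO and at 70.2, 65.3 and 64.6 CPM in Control, and its ratio of 0.363 was the lowest of the group. Both genes had SOX17KO libraries that lay close together and below every Control library by a wide gap. Mospd3, an endoplasmic reticulum protein with an MSP domain, was at 0.409, and Plod3, the lysyl hydroxylase and glycosyltransferase of collagen, at 0.587. Get4, which hands over tail-anchored proteins, was at 0.614, Ap4m1, the medium subunit of AP-4, at 0.638, and Kdelr2, the KDEL retrieval receptor, at 0.702. Wipi2, which binds phosphoinositides at the forming autophagosome, was the least lowered, with 63.4, 68.6 and 63.4 CPM in SOX17KO and 85.2, 84.5 and 84.9 CPM in Control. Cnpy4 and Chst12, at ratios of 0.745 and 0.632, were the members not called.

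Signalling and membrane proteins held the member with the lowest ratio of all, at few counts. Prkar1b, a regulatory subunit of protein kinase A, was at 0.382, 0.351 and 0.554 CPM in SOX17KO and at 2.75, 1.91 and 2.13 CPM in Control, a ratio of 0.189 and a log2 fold change of -2.41 ± 0.30 (SE). All 3 SOX17KO libraries were below 1 CPM and all 3 Control libraries above it. Pdgfa, the A chain of platelet-derived growth factor and a signal to fibroblasts, was at 119, 87.8 and 85.9 CPM in SOX17KO and at 163, 145 and 153 CPM in Control, a ratio of 0.635. SOX17KO replicate 1 was nearest to Control for Pdgfa, which shares 27.6% of its exonic bases with the opposite-strand transcript 6330403L08Rik. Pdap1, a phosphoprotein named for binding PDGF-A, was at 241, 203 and 178 CPM in SOX17KO and at 314, 314 and 336 CPM in Control. Bri3, a small membrane protein, was at 40.5, 49.3 and 50.7 CPM in SOX17KO and at 65.6, 63.8 and 68.6 CPM in Control.

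Of the 8 tested signalling members 6 were called lower, Lrch4 at a ratio of 0.382 and Iqce, a ciliary Hedgehog regulator, at 0.565 among them. Lrch4 shares 92.9% of its exonic bases with another gene model on the same strand, so its counts are uncertain. Ttyh3, a membrane protein of the tweety family, was at 30.8, 13.4 and 13.9 CPM in SOX17KO and at 35.4, 32.1 and 32.3 CPM in Control and was not called. Vgf was almost silent, at 0.0763, 0 and 0.111 CPM in SOX17KO and at 0.109, 0.144 and 0.152 CPM in Control, so its difference was not detectable at this depth.

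The remaining 6 members act in the genome, the nuclear envelope and mitochondria, and 4 were called lower with a median log2 fold change of -0.76. Sun1, an inner nuclear membrane protein that couples the nucleus to the cytoskeleton, was at 149, 179.6 and 179.6 CPM in SOX17KO and at 326, 320.0 and 304 CPM in Control, a ratio of 0.535. Fis1, a mitochondrial outer membrane protein of fission, was at 52.2, 55.7 and 50.2 CPM in SOX17KO and at 114, 114 and 125 CPM in Control, a ratio of 0.448. In both genes the gap between the groups was several times the spread within them. Mad1l1, which anchors the spindle checkpoint at kinetochores, was at a ratio of 0.602, and Nudt1, which clears oxidised nucleotides, at 0.582. Pms2, the mismatch repair endonuclease subunit, was at 27.6, 19.4 and 21.5 CPM in SOX17KO and at 29.9, 34.4 and 34.9 CPM in Control, a ratio of 0.691, and was not called. Its highest SOX17KO value lay just under its lowest Control value. Ptcd1, a mitochondrial RNA-binding protein, was at 23.5, 19.5 and 17.9 CPM in SOX17KO and at 28.8, 26.7 and 28.3 CPM in Control. It was not called either.

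By the median, the members varied more between SOX17KO libraries than between Control libraries, and so did all tested genes. Their median coefficient of variation was 11.1% in SOX17KO and 4.58% in Control, and over all tested genes it was 14.1% and 6.06%. The SOX17KO value was the larger in 49 of the 58 members. SOX17KO replicates 1, 2 and 3 were the lowest of the 3 in 21, 8 and 29 members and the highest in 23, 25 and 10. Replicate 1 was far below the others in Micall2, Smurf1 and Baiap2l1 and above them in Srrt, Cnpy4, Ttyh3 and Eif2ak1.

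The size of the difference changed along the chromosome. The segment was divided after the values had been seen, at the step in member ratios between Mepce and Zkscan1 and at Foxk1. From Fis1 to Mepce the median ratio over 14 tested members was 0.437, with 0.446, 0.481 and 0.420 in SOX17KO replicates 1, 2 and 3. In that stretch 10 members lay between 0.363 and 0.448, while Plod3, Trim56, Srrt and Trip6 lay between 0.587 and 0.729. From Zkscan1 to Iqce the median over 19 members was 0.606, and from Foxk1 to Cpsf4 it was 0.694 over 25 members. Mepce at 0.434 and Zkscan1 at 0.709 are consecutive members on either side of the step. The 7 other tested genes between them ran from 0.261 to 0.972, so they do not show a sharp boundary. Median ratios of the other tested genes were 0.490 up to Mepce and 0.682 between Mepce and Zkscan1. They were 0.606 from Zkscan1 to Foxk1 and 0.701 after Foxk1. Under 0.5 there were 2 members after the step, Prkar1b and Micall2, and 0 after Foxk1. This holds for the member list only. Among the other tested genes the lowest ratio was 0.437, for Gal3st4, between Zkscan1 and Foxk1, and 0.476, for Nptx2, after Foxk1. Across the 58 members the log2 fold change had a Spearman rho of 0.49 with gene order, of -0.17 with the Control CPM per kb and of 0.19 with transcript length. These are descriptions over genes that share the same 6 libraries.

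**Figure D2:**
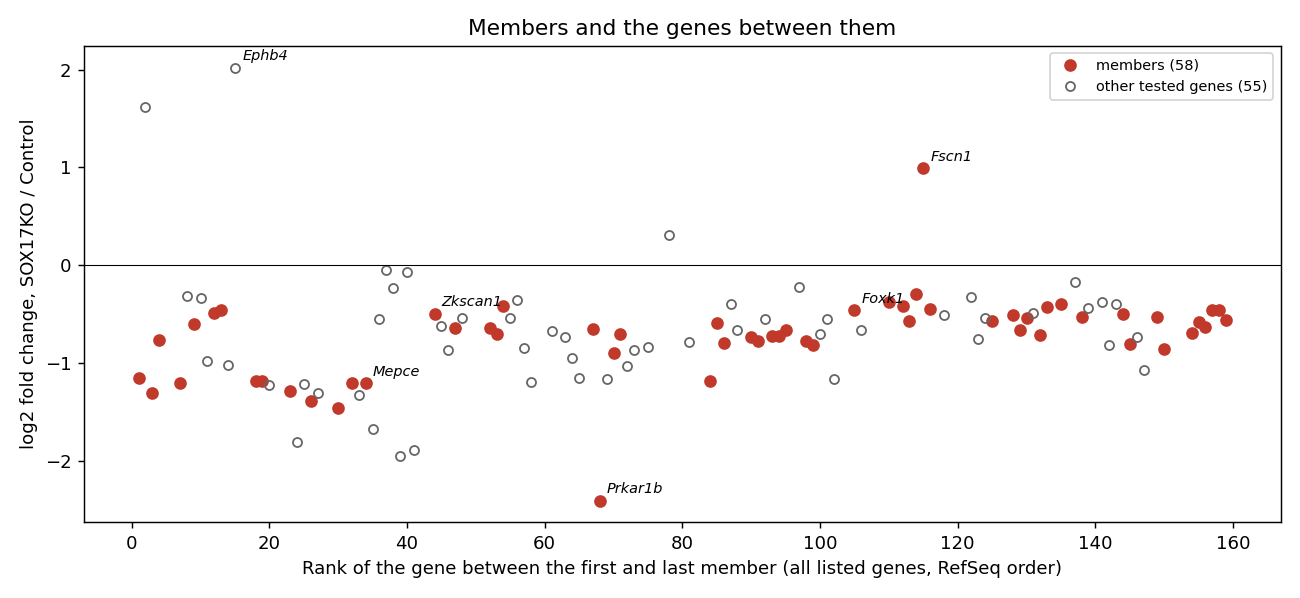
Log2 fold change, SOX17KO over Control, of the 58 tested members (filled red) and the 55 other tested genes between the first and last member (open grey), by rank in RefSeq order. Most members up to Mepce lie near -1.2 and most from Zkscan1 on lie between -0.90 and -0.30. Ephb4, Cldn15, Fscn1 and Gpr146 stand above 0.

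Genes between the members that the member list leaves out were low as well. Of the 55 other tested genes between Fis1 and Cpsf4, 52 had a negative log2 fold change, with a median of -0.67. The edgeR test called 26 lower and 1 higher, beside 3.2% and 3.67% of all tested genes. Gnb2, a G protein beta subunit, was at a ratio of 0.427, and Gna12, a G protein alpha subunit, at 0.444. Mcm7, a subunit of the replicative helicase, was at 0.688 and was not called. Ephb4, the receptor tyrosine kinase for ephrin-B2, was the gene called higher, with 91.0, 27.0 and 39.0 CPM in SOX17KO and 13.5, 12.0 and 13.3 CPM in Control. All 3 SOX17KO libraries were above Control, with replicate 1 the highest by far. Cldn15, a claudin of the gut, was at 2.48, 0.351 and 1.72 CPM in SOX17KO and at 0.579, 0.478 and 0.418 CPM in Control, and its groups overlapped. These genes lie in the segment that was noticed in the same data, so they are not independent of its choice.

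The ends of the list were not ends of the low stretch. Cux1, a homeobox factor beyond the first member, was at 35.2, 36.6 and 32.8 CPM in SOX17KO and at 124, 113 and 113 CPM in Control, a ratio of 0.298. Orai2, Prkrip1 and Rabl5, next to it, were at 0.296, 0.363 and 0.325. The fifth flanking gene on that side, 4933404O12Rik, was under 1 CPM in every library, with a ratio of 0.572 and overlapping groups. Beyond Cpsf4, Atp5j2, Zkscan5, Zfp655 and Zfp498 were at 0.689, 0.680, 0.762 and 0.751, and Zkscan14 at 0.849. Orai2, Prkrip1, Cux1 and Rabl5 lay below the nearest members, Fis1 at 0.448, Znhit1 at 0.405 and Plod3 at 0.587. The genes beyond the other end were at or above the 0.674 of Cpsf4.

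Genes that work with the members but lie elsewhere in the genome were compared to ask whether whole complexes moved or the subunits encoded in the segment. In 17 lists of complex partners, pathway genes and paralogs, none of whose genes lies in the segment, 189 of 193 genes in the table were tested. Of these 1 was called lower, 4 were called higher and 184 were not called, with a median log2 fold change of 0.030. The same rule called 3.2% of all tested genes lower and 3.67% higher. Every SOX17KO library lay below every Control library in 18 of the 189 and above in 24, beside 14.2% and 14% of all tested genes. At an unadjusted p below 0.05 edgeR gave 10 lower and 14 higher, beside 9.74% and 10.6% of all tested genes. DESeq2 called 5 and 7, beside 4.95% and 5.72% of the genes with an adjusted p, and limma-voom 1 and 4, beside 3.25% and 2.99%. Without SOX17KO replicate 1 edgeR called 13 lower and 16 higher, beside 10.3% and 11.9% of all tested genes. Without Control replicate 1, 2 or 3 it called 0 in either direction, beside 0.798%, 0.763% or 0.854% of all tested genes called lower. Without SOX17KO replicate 3 it called 0 lower. The share of all tested genes called in that fit is not given here, so nothing is read from that count.

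In each of the 16 lists of complexes and pathways, the members had lower log2 fold changes than every listed gene. The members were chosen from a low stretch in this same contrast, so that order was largely set in advance, here and in the remaining lists. Only the values of the listed genes themselves, which were not chosen that way, bear on whether whole complexes moved. In the Arp2/3 complex Arpc1a and Arpc1b had log2 fold changes of -0.69 and -0.59, where the 7 other subunit genes had a median of 0.032 and 0 calls. Arpc2, with the most counts of these, was at 424, 558 and 556 CPM in SOX17KO and at 517, 535 and 548 CPM in Control (edgeR adjusted p = 0.865). In eIF3, Eif3b was at -0.72, and the other 12 genes had a median of 0.113 and 0 calls. Eif3a, with the most counts of these, was at 954, 844 and 826 CPM in SOX17KO and at 830.2, 855 and 885 CPM in Control (edgeR adjusted p = 0.912). In both, the groups of the partner with the most counts overlapped while those of the member did not. The groups did not overlap in Arpc4, at a ratio of 0.836, nor in Arpc3, Arpc5 and Eif3f, at 1.14, 1.16 and 1.16. Ints1 was at -0.59 beside a median of 0.004 over 11 Integrator genes, and Taf6 at -0.70 beside -0.005 over 13 TFIID genes. Pms2 was at -0.53 beside -0.048 over 7 mismatch repair genes, Mepce at -1.20 beside 0.042 over 5 genes of 7SK and P-TEFb, and Pop7 at -1.18 beside 0.072 over 9 genes of RNase P and MRP.

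The same held for the remaining lists. Trrap was at -0.53 beside 0.054 over 11 genes of TIP60 and SAGA, Ap1s1 and Ap4m1 at -1.20 and -0.65 beside 0.021 over 7 adaptor genes, and Get4 at -0.70 beside 0.012 over 5 genes of tail-anchored insertion. Mad1l1 was at -0.73 beside 0.051 over 7 spindle checkpoint genes and Fis1 at -1.16 beside 0.021 over 5 genes of mitochondrial fission and fusion. None of the genes in these lists was called by edgeR. Rac1 was at -0.54 beside a median of -0.011 over 13 genes of the WAVE complex and Rac effectors, of which Wasf1, a WAVE subunit, was called higher. Cops6 was at -0.64 beside 0.033 over 8 COP9 genes, of which Cops7a was called lower, and Cpsf4 at -0.57 beside 0.038 over 12 genes of 3′ end processing, of which Cpsf2 was called higher. Over 14 actin and SRF target genes the median was 0.073 with 0 calls, and over 43 paralogs 0.014 with 2 calls, both higher. The gene with the most counts in each list without a call had a ratio of SOX17KO to Control close to 1: 0.916 for Flna, 1.00 for Ints3, 1.05 for Taf1, 1.01 for Morf4l1, 0.963 for Pcna, 1.01 for Ap1g1, 1.04 for Bag6, 1.03 for Cdk9, 1.05 for Bub3 and 0.966 for Dnm1l. Pop1, the scaffold of RNase P, was at 0.824, with 54.4, 36.0 and 26.8 CPM in SOX17KO and 45.1, 46.8 and 50.4 CPM in Control. Its edgeR adjusted p was 0.61, and 0.00577 without SOX17KO replicate 1, when its log2 fold change was -0.59.

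**Figure D3:**
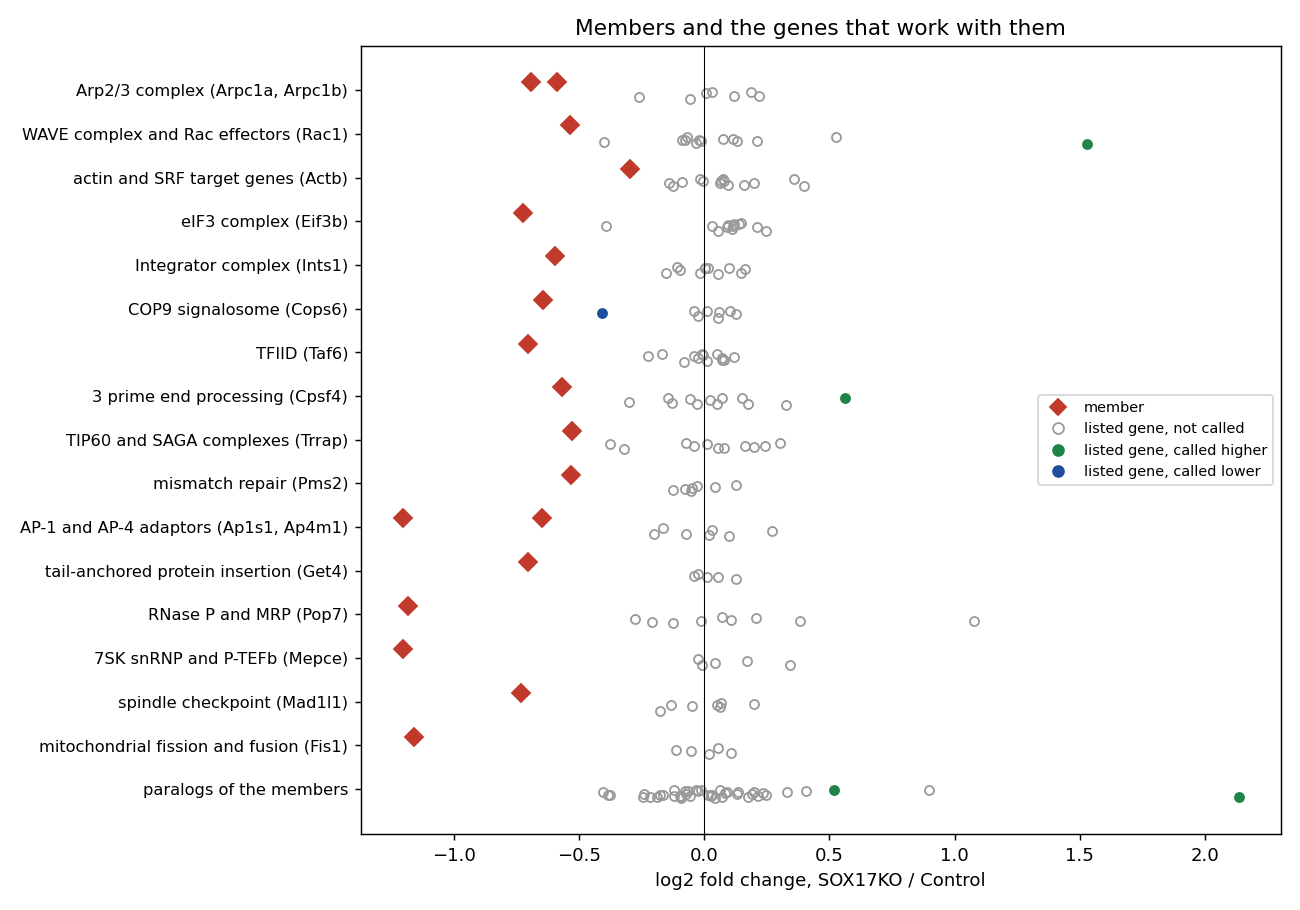
Log2 fold change, SOX17KO over Control, of members (red diamonds) and of the listed genes that work with them or resemble them (circles), 1 line per list. Red diamonds lie between -1.2 and -0.30, grey circles are not called and centre on 0, green circles are called higher and the blue circle, Cops7a, is called lower.

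The called partners were few, and they varied with the libraries used. Wasf1 rose to 7.48, 4.13 and 4.32 CPM in SOX17KO, against 1.70, 1.77 and 2.05 CPM in Control, a log2 fold change of 1.53 ± 0.28 (SE, edgeR adjusted p = 0.0234). Cpsf2, an endonuclease-like subunit of the cleavage complex, rose to 223, 197 and 195 CPM in SOX17KO, against 130.3, 138 and 149 CPM in Control (0.56 ± 0.09, edgeR adjusted p = 0.0148). Among the 20 tested genes nearest to Cpsf2 on chromosome 12, 10 were called higher, beside 3.67% of all tested genes. Their median log2 fold change was 0.51, so the neighbours of Cpsf2 moved with it. Cops7a fell to 137, 136 and 132 CPM in SOX17KO, against 179.6, 172 and 186 CPM in Control (-0.41 ± 0.07, edgeR adjusted p = 0.0185). Of its 20 nearest tested genes on chromosome 6, 17 had a negative log2 fold change, with a median of -0.23. Of these, 0 were called lower and 1 higher, beside 3.2% and 3.67% of all tested genes. The 20 tested genes nearest to Wasf1 on chromosome 10 had a median of 0.17, with 0 called lower and 2 higher. The part of these neighbourhoods in the results for Wasf1, Cpsf2 and Cops7a was not tested. Ttyh2, a paralog of the member Ttyh3, rose to 25.5, 10.9 and 14.3 CPM in SOX17KO, against 4.81, 3.06 and 3.65 CPM in Control (2.13 ± 0.35, edgeR adjusted p = 0.0145). The 20 tested genes nearest to Ttyh2 had a median log2 fold change of -0.047, with 0 called. For Wasf1, Cpsf2, Cops7a and Ttyh2, all 3 SOX17KO libraries lay on the stated side of Control. Each lost its call without any 1 Control library, with adjusted p up to 0.131 for Wasf1, 0.102 for Cpsf2, 0.112 for Cops7a and 0.0925 for Ttyh2, and Cops7a also without SOX17KO replicate 3 (0.0515).

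Actg1, the gene of gamma-actin, on chromosome 11, moved opposite to Actb. It rose to 2338, 2694 and 2454 CPM in SOX17KO, against 1732, 1765 and 1730.2 CPM in Control, with means of 2495 ± 181 CPM in SOX17KO and 1742 ± 19.5 CPM in Control (SD, n = 3 each). The log2 fold change of 0.52 ± 0.09 (SE) passed edgeR's quasi-likelihood test (adjusted p = 0.0174), and the groups did not overlap. The call was lost without Control replicate 1, 2 or 3, with adjusted p up to 0.114. Of its 20 nearest tested genes 0 were called by edgeR, with a median log2 fold change of -0.021. Per kilobase of exon, Actb stood at 2104 CPM per kb in SOX17KO and 2583 in Control, and Actg1 at 1366 in SOX17KO and 954 in Control.

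Summed over both genes, cytoplasmic actin was at 5304, 6349 and 5810 CPM in SOX17KO and at 5991, 5811 and 5675 CPM in Control. The means of 5821 ± 523 CPM in SOX17KO and 5826 ± 158 CPM in Control (SD, n = 3 each) gave a ratio of 0.999, and the groups overlapped. The sum includes a member and is given without a test. The coding sequences of Actb and Actg1 are nearly identical, so reads that fit both were divided by the estimate and the split between them is uncertain.

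**Figure D4:**
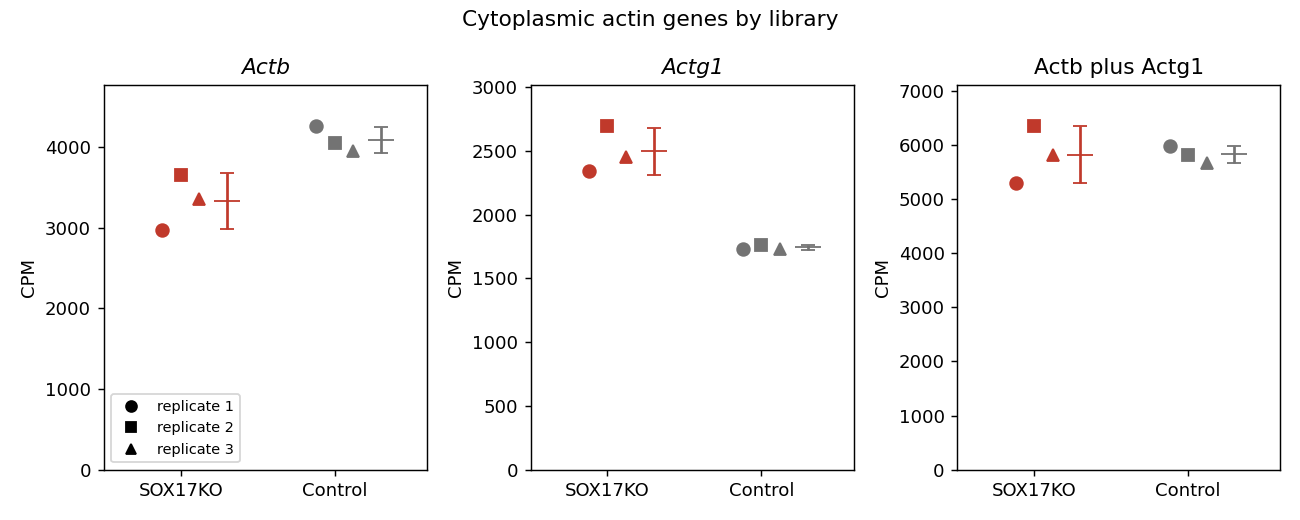
CPM of Actb, Actg1 and their sum in each library, with the mean and SD of the 3 libraries of each group on linear axes from 0. Actb is lower and Actg1 higher in all 3 SOX17KO libraries, and the sums overlap at means of 5821 CPM in SOX17KO and 5826 CPM in Control.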

How the data were processed

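The authors deposited 1 table of expected counts for 23224 genes in 6 columns, 1 per library, each matched to a sample by its name. Libraries were directional with poly(A) selection, per the labels' protocols. Bowtie, RSEM and the build mm9 are named, without versions, per the submitters' processing notes. For the annotation, strand setting and filters behind the table, the sources used here state nothing. Expected counts were rounded to whole numbers and fitted for all genes with edgeR 4.0.16 in R 4.3.3 (quasi-likelihood F test, TMM factors, filterByExpr with minimum count 10 and minimum total 15, genotype as the only term, Benjamini-Hochberg adjustment over 12137 genes). The threshold for a call was an adjusted p of 0.05. An SE is the size of the log2 fold change divided by the square root of F. Reads carried no molecular identifiers, so counts are not independent molecules. Since separate cultures are not stated, p-values refer to the spread of these samples.

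The members and all lists were chosen with earlier results of these data known. Named with every library's value were Actb, Rac1, Arpc1a, Arpc1b, Eif3b, Trrap, Pms2, Pdgfa and Vgf, and in each role group the member with the most Control counts and those with the lowest and highest fold change; outside the members Sox17, Actg1, called partners up to 3 per list and otherwise the most abundant gene of the list, and flanking genes. Srrt, Trip6, Ttyh3, Ephb4, Cldn15, Gnb2, Gna12 and Mcm7 were added after their values were seen. A promoter was planned for Actb and Rac1 too.

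Gene order came from RefSeq on GRCm38.p6, which matched 99.2% of the tested genes; exon lengths and overlaps came from GENCODE M21. Both are later than mm9. Alternatives were RLE factors, library totals, no filter, at least 1 CPM in 3 libraries, DESeq2 1.42.0, limma-voom (limma 3.58.1), a replicate block and each library left out. The procedure was tested on simulated data. Figures used matplotlib 3.10.9.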

Additional observations from a re-analysis of the deposited data

How the results depend on the processing

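The median log2 fold change of the members stayed between -0.69 and -0.60, and 57 of the 58 tested members kept a negative value, in all 13 alternatives. Of the 376 alternative values of named members, all kept their direction and moved by less than the replicate spread. Fscn1 is among them, with widely spread replicates and a value that came mostly from SOX17KO replicate 1. Counts of calls moved more. Members called lower were 44, with leave-one-out counts of 16 to 55; all genes called were 834, with 192 to 2708 and DESeq2 at 1437. Partners and paralogs called lower were 1, with 0 to 13 and DESeq2 at 5; those called higher were 4, with 0 to 16 and DESeq2 at 7. With the replicate number as a block, 19 members were called lower, 326 genes in all, and 0 partners lower and 1 higher. Samples of the same number did not deviate together (r of -0.186, -0.047 and -0.181 over 12137 genes), so the numbers give no pairing. From 100 bases before to 50 after the start, 4.08% of member genes held a TATA box (4.22% of tested genes with a window), 22.4% a CCAAT box (30.2%) and 12.2% a SOX core (10.7%), below the per-gene shares of the longer window. Uncalled partners near 0 changed sign. Their leave-one-out log2 fold changes ran from -0.12 to 0.061 for Arpc2, -0.039 to 0.070 for Eif3a, -0.056 to 0.075 for Ints3, -0.0019 to 0.11 for Taf1, -0.024 to 0.041 for Morf4l1, -0.23 to 0.033 for Pcna, -0.023 to 0.077 for Ap1g1 and -0.056 to 0.14 for Bub3. Without the low-count filter Ints3 was at -0.014 and Morf4l1 at -0.0049, and Ints3 was at -0.00089 under the block, -0.00042 with DESeq2 and -0.00016 with limma-voom. The cause was not tested. No scaling moved the median of all genes by more than 0.1.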
